A study of Mus musculus with 2 samples.

Results

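The RNA of 8 genes of the interleukin 1 system was followed across the cells of the lung. They were taken by gene symbol from the 32883 features of the count matrices, and all 8 symbols were found: the ligands Il1a and Il1b, the receptor antagonist Il1rn, the receptors Il1r1 and Il1r2, the receptor accessory chain Il1rap, the protease Casp1 and the inflammasome sensor Nlrp3. Lungs were dissociated with enzymes and single cells were sequenced in droplets (10x Genomics), where each captured RNA molecule is counted once through its unique molecular identifier (UMI). Both libraries came from mice labelled wild type, 1 after sham surgery and 1 at 6 hours of hepatic ischemia-reperfusion (HIR). In that procedure the liver loses its blood flow for a time and regains it, and the lung is a remote organ. The number of animals behind each library is not given in the sources used here.

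Interleukin 1 is an early inflammatory cytokine. Il1a and Il1b code for ligands that bind the signalling receptor Il1r1, which needs the accessory chain Il1rap and acts through MyD88 and NF-kB. Il1rn codes for an antagonist that occupies Il1r1 without signalling, and Il1r2 for a decoy receptor that binds the ligand but has no signalling domain. The Il1b product is made as an inactive precursor that Casp1 cuts once an inflammasome such as that of Nlrp3 has formed, so RNA levels do not give the amount of active cytokine.

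The libraries held 59566745 UMIs in 10719 barcodes (sham) and 50801778 UMIs in 9499 barcodes (HIR), of which 8571 and 7921 cells were kept. All 32883 features carry rat gene identifiers, although the labels give mouse. Cells fell into 30 clusters, named "-like" from marker genes, and 17 classes had at least 100 cells in each library. Lung epithelial and capillary markers defined several of them. Neutrophil-like cells made up 4.28% of sham and 16.1% of HIR cells, and classical monocyte-like cells 1.83% and 4.53%. The neutrophil-like class joined cluster 6 and cluster 24, the second led by the granule genes Ngp, Camp and Mmp8. In the sham library 30 of 367 neutrophil-like cells were of cluster 24, in the HIR library 457 of 1277, so values are also given within a cluster. With 1 library per group there is no test of the treatment. Levels are UMIs per 1000000 UMIs of a class (CPM), and 95% intervals (exact Poisson for a level, exact binomial for a ratio or a share) cover counting error only. The 2 libraries shared 24 barcodes, 16 of them among the kept cells.

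Over all kept cells, 3 of the 8 genes were more than 2-fold higher in the HIR library: Il1b, Il1rn and Il1r2. For Il1b the level was 362 CPM in the sham and 1059 CPM in the HIR library, a ratio of 2.93 (95% interval 2.88 to 2.98). For Il1rn it was 23.1 and 61.9 CPM, a ratio of 2.68 (2.50 to 2.88). For the decoy receptor Il1r2 it was 10.6 and 166 CPM, a ratio of 15.6 (14.3 to 17.2). Nlrp3 was just under 2-fold, with 22.4 CPM in the sham library, 43.4 CPM in the HIR library and a ratio of 1.94 (1.80 to 2.10). Casp1 was level, at 82.3 and 80.6 CPM. A gene counted as measured if 1 of the libraries reached 20 CPM and the sum of both reached 20 UMIs. Of 5721 such genes 1.87% were more than 2-fold higher and 3.53% past 2-fold either way. A gene that reached 20 CPM in the HIR library alone was admitted only because it was higher there, as Il1r2 was over all kept cells. Il1r1 (9.005 and 11.15 CPM), Il1rap (1.73 and 3.83 CPM) and Il1a (1.66 and 2.23 CPM) lay below 20 CPM over all cells and were not counted among the measured genes.

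**Figure D1:**
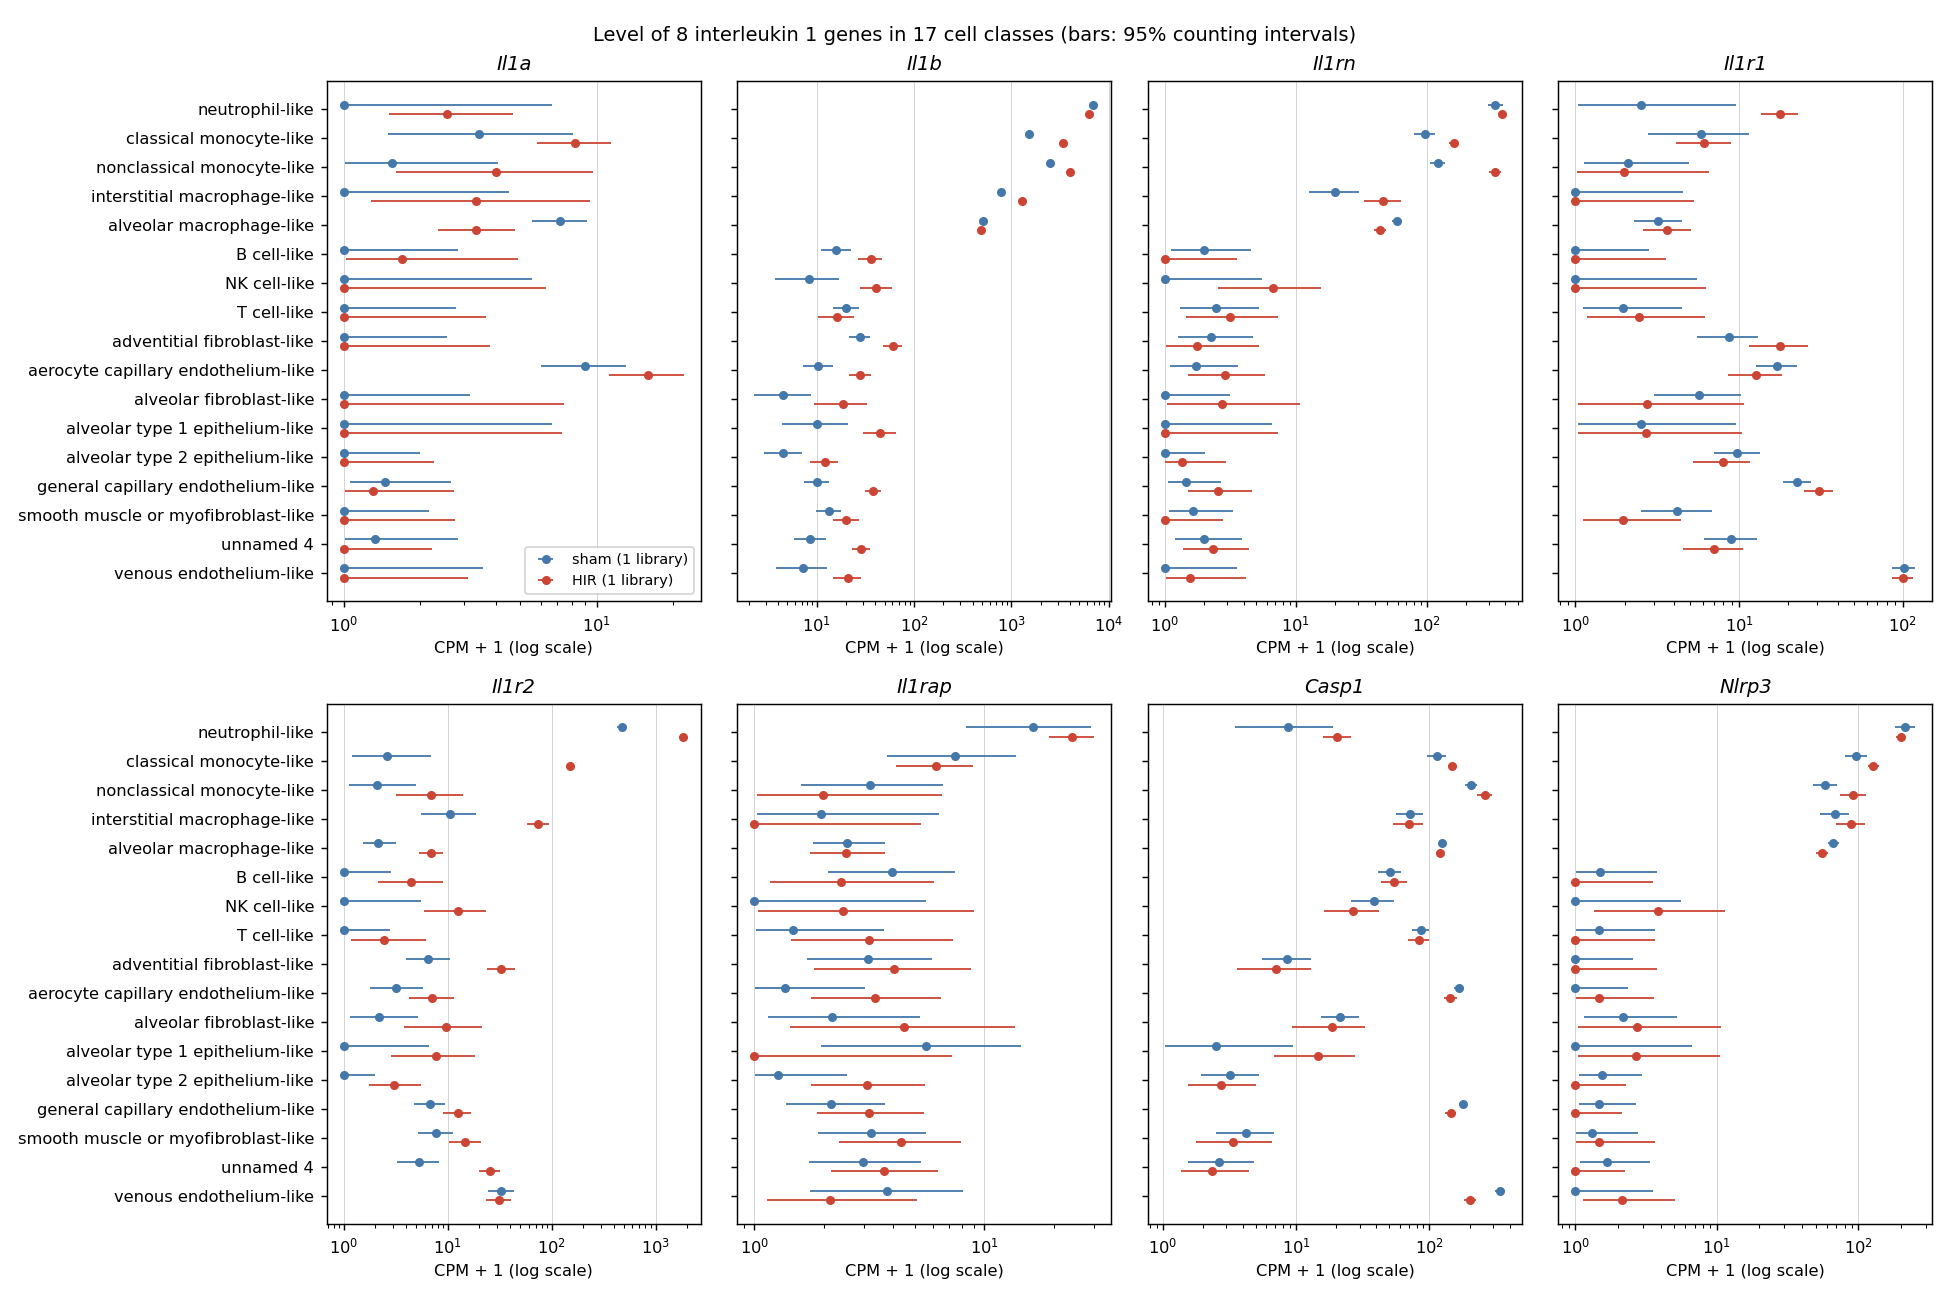
Level of each of the 8 genes (CPM + 1, log scale, with a range of its own in each panel) in the 17 classes with at least 100 cells in each library; blue is the sham and red the HIR library, 1 library each, and bars are 95% counting intervals. Il1b, Il1rn and Nlrp3 sit in the myeloid classes at the top, Il1r2 in neutrophil-like cells, Il1r1 in venous endothelium-like cells, and Casp1 in both myeloid and endothelial classes.

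Library-wide levels mix the level within classes with the number of cells of each class. When the sham levels of every class were weighted by the HIR makeup, Il1b was 2.39 times, Il1rn 2.13 times and Nlrp3 1.87 times the sham value. When the HIR levels were weighted by the sham makeup, these ratios were 1.42, 1.40 and 1.06. For Il1r2 both steps were of like size, 3.84 for makeup and 4.00 for levels. The library-wide difference of Nlrp3 was thus close to what the makeup alone gives, while that of Il1r2 was also present within classes. This arithmetic carries no replicate error.

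The cells that held Il1b RNA differed between the libraries. Of all Il1b UMIs, 26.9% in the sham and 45.6% in the HIR library lay in neutrophil-like cells, and classical monocyte-like cells 11.3% and 30.5%. Nonclassical monocyte-like cells, the patrolling monocytes of the vessel wall, held 26.8% and 9.24%, and alveolar macrophage-like cells 23.9% and 8.05%. For Il1rn the largest holder in the sham library was the alveolar macrophage-like class, with 42.8% of UMIs, against 12.3% in the HIR library. There the neutrophil-like class held 46.7%, against 20.4% in the sham library.

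**Figure D2:**
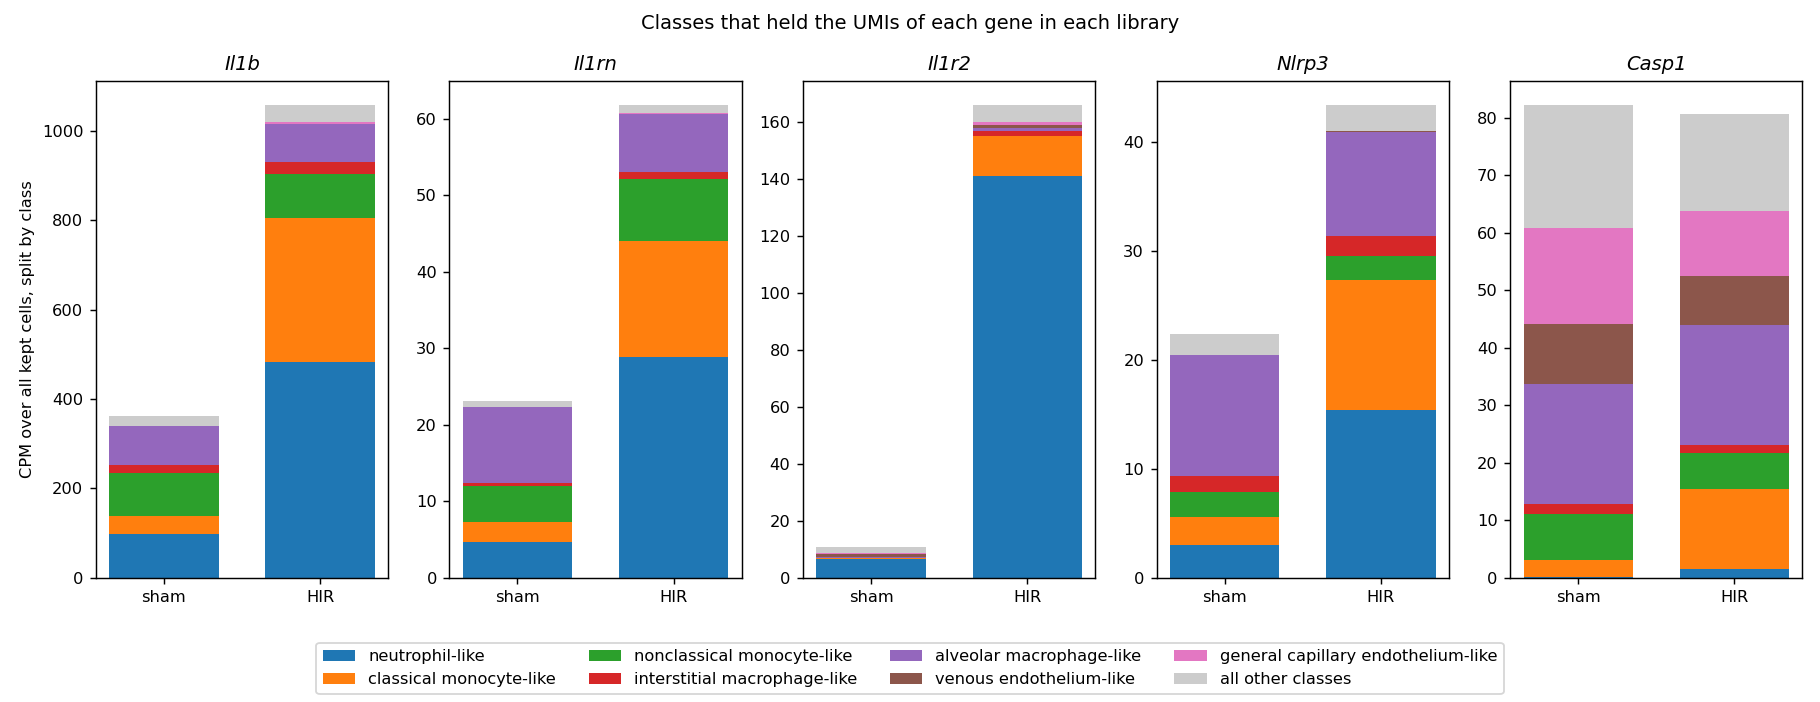
Library-wide CPM of Il1b, Il1rn, Il1r2, Nlrp3 and Casp1 in the sham and the HIR library (1 bar each, linear axis from 0), split by the class whose cells held the UMIs. Neutrophil-like cells held 45.6% of Il1b, 46.7% of Il1rn and 84.9% of Il1r2 UMIs in the HIR library, whereas Casp1 was spread over endothelial, macrophage and monocyte classes.

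Il1b, the secreted ligand, was highest in neutrophil-like cells in both libraries. Its level there was 6913 CPM in the sham (95% interval 6713 to 7118) and 6238 CPM in the HIR library (6152 to 6326), a ratio of 0.902 (0.874 to 0.932). The sign of this small difference was not stable. In cluster 6 alone the level was 8516 and 9388 CPM, a ratio of 1.10 (1.07 to 1.14). In the granule-rich cluster 24 it was 1485 and 3197 CPM, a ratio of 2.15 (1.88 to 2.48), with 30 sham cells. The ratio was 1.01 with doublets kept and 1.15 under a stricter cell filter, so no direction is given for the class. The middle gene of the 3301 measured in neutrophil-like cells was also lower in the HIR library, by 0.30 on the log2 scale. Summed S100a8 and S100a9, abundant neutrophil RNA, took 236825 CPM of this class in the sham and 350850 CPM in the HIR library. All levels of the class are divided by a total that includes them, and their part in the lower levels was not tested.

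The share of neutrophil-like cells with at least 1 Il1b UMI was 89.0% (84.6 to 92.4) in the sham and 84.7% (82.5 to 86.8) in the HIR library, each cell first thinned to 1000 UMIs so that depth was equal. This left out 95 sham and 138 HIR neutrophil-like cells with fewer UMIs, and unthinned shares were 94.3% and 90.4%. In B cell-like cells, which should lack the gene, the thinned share was 0.797% and 1.34%, and in erythroid-like cells 0.645% and 2.27%. Median UMIs per cell were 1338 and 2077 in neutrophil-like, 2108.5 and 2469 in B cell-like and 8687 and 9262 in erythroid-like cells. The share of neutrophil-like cells was thus far above that of both classes that should lack the gene. A thinned neutrophil-like cell held a median of 6 Il1b UMIs in the sham and 5 in the HIR library.

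Blood monocytes of the inflammatory kind, here the classical monocyte-like class, had more Il1b in the HIR library. The class held 1525 CPM in the sham (1457 to 1595) and 3426 CPM in the HIR library (3368 to 3485), a ratio of 2.25 (2.14 to 2.36). The thinned share of cells with a UMI was 63.1% and 81.6%. Summed S100a8 and S100a9 were at 1776 and 26274 CPM in this class, and Il1b was at 6238 CPM in HIR neutrophil-like cells. The part of neutrophil RNA in the Il1b result of this class was not tested. In this class 5 of the 8 genes were measured and 2 were more than 2-fold higher, Il1b and Il1r2, where 5.15% of 4644 genes were more than 2-fold higher and 12.9% past 2-fold either way. Il1r2 reached 20 CPM in this class only in the HIR library, so the filter admitted it only because it was higher there. The median log2 ratio of the 5 was 0.69, against -0.04 for all genes measured.

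Nonclassical monocyte-like cells held 2466 and 4014 CPM of Il1b, a ratio of 1.63 (1.56 to 1.70). Interstitial macrophage-like cells held 785 and 1296 CPM, a ratio of 1.65 (1.51 to 1.81). Alveolar macrophage-like cells, the resident phagocytes of the air space, held 512 and 483 CPM, a ratio of 0.943 (0.901 to 0.987). Blood-borne monocyte classes and the interstitial class were thus higher in the HIR library, while the air-space macrophages were close to their sham level. The alveolar macrophage-like class included a cycling cluster led by Ube2c and Cdk1, and without it the ratio was 0.904. Among 93 sham and 82 HIR type 2 dendritic cell-like cells, too few for a ratio by the rule used here, the level was 549 and 1043 CPM. Compared classes outside the myeloid lineage were under 1% of the neutrophil-like level in both libraries. The highest of these was the HIR adventitial fibroblast-like class at 59.9 CPM, where 1 cell held 35.4% of the UMIs. B cell-like cells were at 14.9 and 34.8 CPM, and their summed S100a8 and S100a9, the most abundant neutrophil RNA, was at 61.1 and 613 CPM. The part of free RNA in these low levels was not tested.

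**Figure D3:**
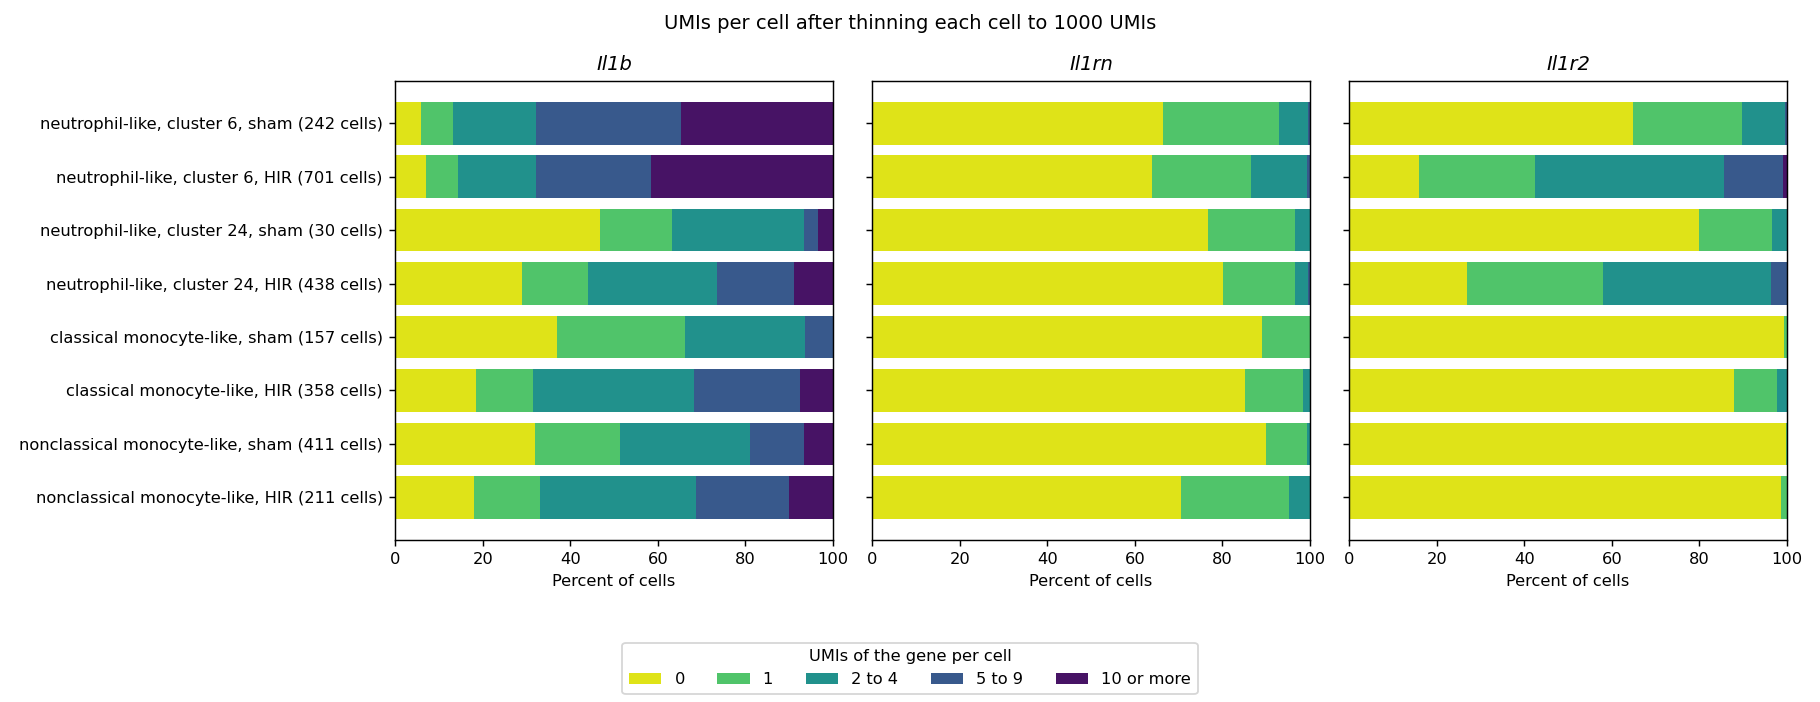
Share of cells (percent, bars stacked to 100) by the number of Il1b, Il1rn or Il1r2 UMIs after every cell was thinned to 1000 UMIs, for both neutrophil-like clusters and both monocyte-like classes in each library; cell numbers stand beside the bars. Il1b counts of cluster 6 largely overlapped between the libraries, and cells without an Il1r2 UMI were 64.9% of cluster 6 in the sham and 15.98% in the HIR library.

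Il1a, the ligand that is active without being cut, was near the detection limit in most classes. It was highest in aerocyte capillary endothelium-like cells, the capillary cells of gas exchange, with 7.98 CPM (22 UMIs) in the sham and 14.96 CPM (32 UMIs) in the HIR library. In alveolar macrophage-like cells the level was 6.14 CPM (48 UMIs) and 2.33 CPM (17 UMIs). Classical monocyte-like cells had 3 UMIs in 157 sham cells and 28 UMIs in 359 HIR cells, and that ratio of 2.97 had an interval of 0.918 to 15.3. No class reached 20 CPM, so no Il1a ratio was called. Its UMIs lay mostly in 3 classes, with alveolar macrophage-like cells at 62.3% of the sham and 18.5% of the HIR UMIs.

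Il1rn, the antagonist, was highest in neutrophil-like cells, and its largest called difference was in nonclassical monocyte-like cells. Neutrophil-like cells held 334 CPM in the sham and 373 CPM in the HIR library, a ratio of 1.12 (0.967 to 1.298) whose interval includes 1. Within cluster 6 the levels were 381 and 535 CPM, a ratio of 1.40 (1.20 to 1.65). In nonclassical monocyte-like cells Il1rn stood at 120 and 331 CPM, a ratio of 2.75 (2.31 to 3.28). Markers of other cells were also higher in this class, with Vcan of classical monocytes at 36.3 and 387 CPM, Cd14 at 66.5 and 458 CPM, and S100a8 and S100a9 at 39.0 and 783 CPM. Il1b and Il1rn stood at 3426 and 161 CPM in HIR classical monocyte-like cells and at 6238 and 373 CPM in HIR neutrophil-like cells. The part of such cells or their RNA in the nonclassical Il1b and Il1rn results was not tested. The thinned share of nonclassical monocyte-like cells with an Il1rn UMI was 9.98% (7.25 to 13.3) in the sham and 29.4% (23.3 to 36.0) in the HIR library. Unthinned shares in this class were 36.7% and 69.8%. Thinned B cell-like cells with an Il1rn UMI were 0 of 753 and 0 of 521, which allow up to 0.398% and 0.576%. Of 4 measured genes of the system in nonclassical monocyte-like cells, Il1rn alone was past 2-fold, where 4.77% of 4630 genes were more than 2-fold higher and 12.2% past 2-fold either way.

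Interstitial macrophage-like cells had 20 Il1rn UMIs in the sham and 39 in the HIR library, or 19.1 and 45.6 CPM. The ratio was 2.39 (1.36 to 4.32). Il1rn and Il1r2 were the 2 of 5 measured genes past 2-fold in this class, where 2.83% of 5378 genes were more than 2-fold higher and 4.83% past 2-fold either way. Both reached 20 CPM only in the HIR library, so the filter admitted them only because they were higher there. When each cell was gated alone from its markers, the Il1rn ratio was 1.58 and its interval (0.943 to 2.67) included 1. Classical monocyte-like cells had 96.1 and 161 CPM of Il1rn, a ratio of 1.67 (1.37 to 2.05). Alveolar macrophage-like cells went the other way, with 58.5 and 43.1 CPM and a ratio of 0.737 (0.636 to 0.853). In that class 0 of 4 measured genes passed 2-fold, where 0.599% of 4839 genes did.

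The number of Il1b UMIs per Il1rn UMI compares agonist and antagonist RNA within a class. It is a ratio of captured molecules and not of proteins. It was 20.5 (17.9 to 23.6) in the sham and 12.1 (10.8 to 13.6) in the HIR library in nonclassical monocyte-like cells. In classical monocyte-like cells it was 15.9 (13.2 to 19.3) and 21.3 (19.7 to 23.1). In neutrophil-like cells it was 20.7 (18.1 to 23.8) and 16.7 (15.8 to 17.7). The 2 monocyte classes thus differed in opposite directions, while the library-wide number was 15.7 and 17.1. Ligand and antagonist also shared cells: among HIR neutrophil-like cells of cluster 6, Il1rn was detected in 37.0% of the 652 thinned cells with an Il1b UMI and in 24.5% of the 49 without. In cluster 24 these shares were 19.6% and 20.5%.

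Il1r2, the decoy receptor, differed most of the 8 genes. Neutrophil-like cells held 476 CPM (311 UMIs) in the sham (95% interval 425 to 532) and 1821 CPM (5820 UMIs) in the HIR library (1774 to 1868), a ratio of 3.82 (3.41 to 4.30). Both neutrophil clusters were higher in the HIR library. In cluster 6 the level was 482 and 2243 CPM, a ratio of 4.65 (4.09 to 5.32), and in cluster 24 it was 457 and 1413 CPM, a ratio of 3.09 (2.43 to 4.00). The 30 sham cells of cluster 24 differed from the 457 HIR cells in granule genes made early in neutrophil development, with Ngp at 13873 and 433 CPM and Camp at 20450 and 3290 CPM, and in Csf3r, at 94.1 and 311 CPM. Their part in the cluster 24 ratios was not tested. The thinned share of neutrophil-like cells with a UMI was 31.6% (26.1 to 37.5) and 78.0% (75.4 to 80.3), and unthinned 43.3% and 91.7%. In B cell-like cells that share was 0 of 753 cells, which allows up to 0.398%, and 0.576%. Il1r2 was the 1 gene past 2-fold among 5 measured in neutrophil-like cells, where 5.48% of 3301 genes were more than 2-fold higher and 22.2% past 2-fold either way. The median log2 ratio of the 5 was 0.16, against -0.30 for all genes measured. Among the 5 was Il1rap, at 15.3 and 23.2 CPM, which the filter admitted only because it was higher in the HIR library. This median was thus partly fixed in advance.

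In classical monocyte-like cells Il1r2 was nearly absent from the sham library. There were 2 UMIs in 157 sham cells (1.62 CPM, 0.196 to 5.84) and 577 UMIs in 359 HIR cells (148 CPM, 137 to 161). The ratio of 91.9 has an interval of 25.3 to 760, because it rests on 2 sham UMIs. The thinned share of cells with a UMI was 0.637% and 12.0%, and unthinned 1.27% and 44.8%. Nonclassical monocyte-like cells had 2 and 6 UMIs.

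Neutrophil RNA was measured in the same classical monocyte-like cells, since S100a8 and S100a9, calcium-binding proteins abundant in neutrophils and made by monocytes too, were also higher there. Their sum was 1776 CPM in the sham and 26274 CPM in the HIR library, and the sum of 12 neutrophil markers was 1955 CPM with 3 of 12 at 0 and 26554 CPM with 2 of 12 at 0. Mmp8, a neutrophil collagenase, was at 0.808 and 38.1 CPM, above its HIR B cell-like level of 10.4 CPM, and the granule gene Camp at 25.04 and 52.5 CPM. Retnlg was at 0.808 and 2.06 CPM, under its HIR B cell-like level of 4.17 CPM, and Mmp9 at 0 and 0.257 CPM, under 2.09 CPM. In HIR neutrophil-like cells Mmp8 was at 2476, Retnlg at 3902 and Mmp9 at 668 CPM. Il1r2 in HIR classical monocyte-like cells was 8.15% of its neutrophil-like level. Per 1000 UMIs of S100a8 and S100a9 there were 0.909 sham and 5.65 HIR Il1r2 UMIs in these cells, and 2.01 and 5.19 in neutrophil-like cells. The part of neutrophil RNA in the Il1r2 result was not tested.

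**Figure D4:**
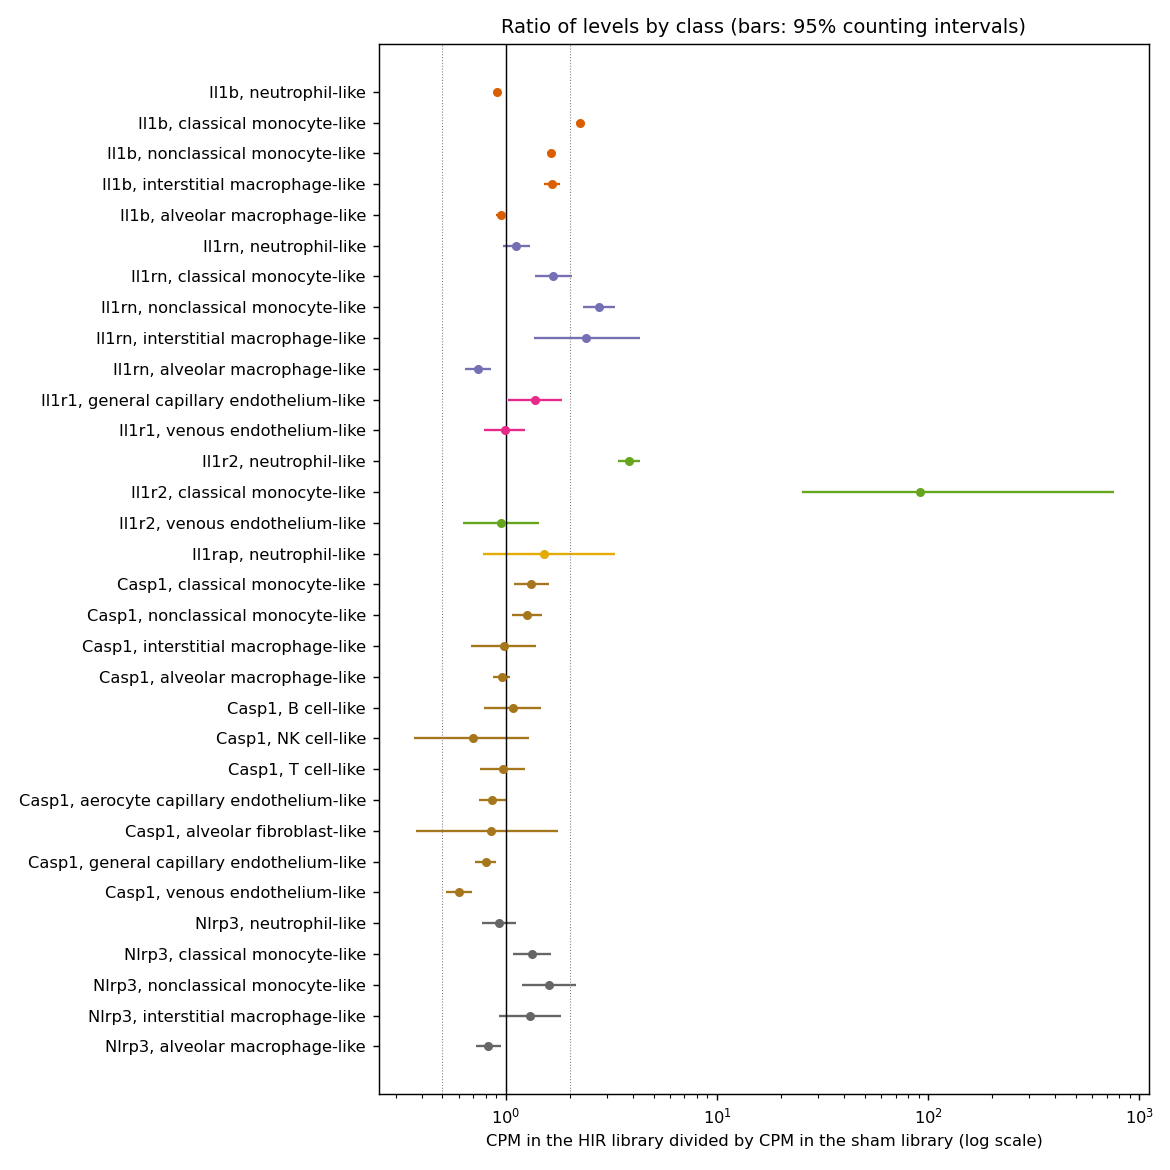
Ratio of the HIR to the sham level (log scale) for each gene in each class where it was measured and reached 5% of its highest class; points are ratios, bars are 95% counting intervals, the solid line marks 1 and the dotted lines mark 2-fold either way. Il1r2 in neutrophil-like (3.82) and classical monocyte-like cells (91.9), Il1b in classical monocyte-like cells (2.25) and Il1rn in nonclassical monocyte-like (2.75) and interstitial macrophage-like cells (2.39) lie past 2-fold, and Casp1 in venous endothelium-like cells (0.599) is the lowest.

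Lower levels of Il1r2 were present in other classes, which are named here after their values were seen, since each was under 5% of the neutrophil-like level. Interstitial macrophage-like cells held 9.55 CPM (10 UMIs) in the sham and 73.6 CPM (63 UMIs) in the HIR library. Adventitial fibroblast-like cells held 5.50 CPM (13 UMIs) and 31.8 CPM (42 UMIs). An unnamed stromal cluster led by Wnt11 and expressing Lum held 4.29 CPM (13 UMIs) and 24.5 CPM (73 UMIs). In the HIR library B cell-like cells held 3.48 CPM and natural killer cell-like cells 11.4 CPM. S100a8 and S100a9 were also higher in the HIR than in the sham library. Their levels were 183 and 321 CPM in the interstitial, 104 and 352 CPM in the adventitial and 41.3 and 443 CPM in the stromal class. The part of free neutrophil RNA in these levels was not tested.

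In venous endothelium-like cells Il1r2 was equal in both libraries, at 31.7 and 30.0 CPM. Over the library, Il1b UMIs per Il1r2 UMI were 34.0 (31.1 to 37.3) in the sham and 6.38 (6.22 to 6.54) in the HIR library. In neutrophil-like cells this number was 14.5 and 3.43. The RNA of the decoy receptor was thus higher relative to that of the ligand in the HIR library in these cells.

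Il1r1, the signalling receptor, lay mainly in endothelium and was close to equal between the libraries. Venous endothelium-like cells, which line the post-capillary vessels where leukocytes leave the blood, held 101 CPM in the sham (85.0 to 118) and 99.2 CPM in the HIR library (85.0 to 115), a ratio of 0.985 (0.786 to 1.24). General capillary endothelium-like cells held 21.6 and 29.7 CPM, a ratio of 1.37 (1.02 to 1.84). Of 3 measured genes in each of these classes, none in the venous class and Il1b alone in the capillary class passed 2-fold, where 5.66% of 5782 and 2.81% of 5846 genes did. The Il1b level of the capillary class was 8.98 and 37.1 CPM, so it was measured there through the HIR library alone. It was close to the B cell-like level in the HIR library. The venous class held 35.0% of all Il1r1 UMIs in the sham and 38.0% in the HIR library, and the capillary class 22.5% and 20.9%. No Il1r1 UMI was seen in 806 sham or 531 HIR B cell-like cells, which allows levels of up to 1.49 and 2.09 CPM.

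Neutrophil-like cells had 1 Il1r1 UMI in 367 sham cells and 54 UMIs in 1277 HIR cells. The levels were 1.53 and 16.9 CPM, and the ratio of 11.03 has an interval of 1.90 to 444. In cluster 6 alone the count was 1 and 33 UMIs, or 1.98 and 21.0 CPM. The difference thus rests on a single sham UMI. In cluster 6, 7 of the 8 genes were measured. All 7 were higher in the HIR library and 3 were past 2-fold (Il1r1, Il1r2 and Casp1). Of 3410 genes there, 7.6% were more than 2-fold higher and 21.5% past 2-fold either way. Il1r1, Il1rap and Casp1 reached 20 CPM in this cluster only in the HIR library. The filter admitted them only because they were higher there, so both counts were partly fixed in advance. Il1rap, the accessory chain, was also highest in neutrophil-like cells, with 15.3 CPM (10 UMIs) and 23.2 CPM (74 UMIs) and a ratio of 1.51 (0.778 to 3.28). All other compared classes were under 7 CPM for Il1rap in both libraries, so the accessory chain was not measurable in the endothelium that held most Il1r1.

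Casp1, the protease that cuts the Il1b precursor, was present in myeloid, endothelial and lymphoid classes. It was highest in venous endothelium-like cells in the sham library, with 335 CPM (306 to 366), against 201 CPM (180 to 223) in the HIR library. That ratio was 0.599 (0.520 to 0.688). Nonclassical monocyte-like cells had the highest level of the HIR library, 258 CPM against 205 CPM in the sham, a ratio of 1.26 (1.07 to 1.48). All 3 vascular classes were lower in the HIR library: general capillary endothelium-like cells held 179 and 143 CPM, and aerocyte capillary endothelium-like cells 165 and 142 CPM. Alveolar macrophage-like cells differed by less than their counting intervals, with 124 and 118 CPM.

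Casp1 was scarce in the cells richest in Il1b. Neutrophil-like cells held 7.66 CPM (5 UMIs) in the sham and 19.4 CPM (62 UMIs) in the HIR library, and the ratio of 2.53 had an interval of 1.03 to 8.08. In cluster 6 the counts were 4 and 39 UMIs. The thinned share of neutrophil-like cells with a Casp1 UMI was 1.10% and 1.84%. In B cell-like cells it was 5.18% and 3.65%, so the neutrophil share was under that of lymphocytes in both libraries.

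Nlrp3, the inflammasome sensor, was restricted to myeloid classes among the 17 compared. Neutrophil-like cells held 214 and 199 CPM, a ratio of 0.927 (0.771 to 1.12). In classical monocyte-like cells Nlrp3 stood at 96.1 and 127 CPM, which gives 1.32 (1.08 to 1.63). Nonclassical monocyte-like cells held 57.2 and 91.5 CPM, or 1.60-fold (1.20 to 2.14). Alveolar macrophage-like cells held 65.7 and 54.2 CPM, a ratio of 0.826 (0.723 to 0.944). The remaining compared classes, interstitial macrophage-like cells aside, were under 3 CPM in both libraries. Nlrp3 was never past 2-fold within a compared class.

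Likeness to other genes was described by Pearson's r of log levels over 34 points, the 17 classes in both libraries, among 4108 genes with at least 100 CPM in 1 class. The points share libraries, and each class enters with both of its values. For Il1b the nearest were Lilrb3a (0.98), Cfp, which codes for the complement factor properdin (0.97), and Alox5ap, the helper protein of leukotriene synthesis (0.96). For Il1rn they were Pstpip2 (0.98), the bacterial sensor Nod2 (0.97) and AABR07021402.1 (0.97). For Il1r2 they were the leukotriene B4 receptor Ltb4r (0.88), the neutrophil collagenase Mmp8 (0.88) and Steap4 (0.87). For Il1r1 they were Tmem252 (0.89), Cytl1 (0.89) and the endothelial nitric oxide synthase Nos3 (0.89), and for Nlrp3 Lilrb3a (0.98), Csf2ra (0.98) and Alox5ap (0.97).

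Genes that interleukin 1 is known to induce were listed separately, 22 genes of which 21 were in the files. Other signals such as TNF and bacterial products induce most of them too. In neutrophil-like cells 12 were measured, of which 7 were more than 2-fold higher and 1 more than 2-fold lower, against 5.48% and 16.7% of all genes measured. Their median log2 ratio was 1.45, against -0.30 for all genes. In cluster 6 alone 8 of 11 were more than 2-fold higher and 1 lower, with a median of 1.35 against -0.23. Nfkbia, the NF-kB inhibitor that NF-kB itself induces, was at 482 and 2379 CPM, a ratio of 4.93 (4.40 to 5.54). The neutrophil-attracting chemokine Cxcl1 was at 33.7 and 177 CPM (5.25, 3.43 to 8.44) with 9.61 when the sham cell with 10 of the 22 UMIs is left out, and the survival factor Birc3 at 15.3 and 95.4 CPM (6.23, 3.34 to 13.1). Ptgs2, the inducible cyclooxygenase, was at 30.6 and 108 CPM and Nfkbiz at 64.3 and 198 CPM. Il6 and Cxcl3 each had 1 sham UMI, and 1 cell held 59.0% of the 83 HIR UMIs of Cxcl3. Birc3, Il6 and Cxcl3 reached 20 CPM in neutrophil-like cells only in the HIR library. The filter admitted them only because they were higher there, so the count of 7 and the median were partly fixed in advance. The monocyte chemokine Ccl2 was lower, 1176 and 109 CPM, in 35 of 367 sham and 45 of 1277 HIR cells.

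In classical monocyte-like cells 13 of these genes were measured, with 8 more than 2-fold higher and 2 more than 2-fold lower, against 5.15% and 7.75% of all genes. Their median log2 ratio was 1.01, against -0.04. Cxcl1 was at 80.0 and 686 CPM (8.58, 7.02 to 10.6), Cxcl2 at 885 and 2473 CPM and Nfkbia at 531 and 1666 CPM. The cytokine Il6 was at 5.65 CPM (7 UMIs) and 97.7 CPM (380 UMIs), a ratio of 17.3, or 30.1 without the sham cell with the most UMIs. Tnfaip3, Nfkbiz, Icam1 and Birc3 were the other 4 past 2-fold. Summed S100a8 and S100a9 were at 1776 and 26274 CPM in this class, and the part of neutrophil RNA in these results was not tested. Ccl2 was lower, at 3364 and 866 CPM, and so was Ccl7, at 102 and 6.69 CPM, a ratio of 0.0657 that was 0.103 without the top sham cell and 0.0406 without the top HIR cell. Il6 reached 20 CPM in this class only in the HIR library, and Ccl7 only in the sham library. The filter admitted each only through the library where it was higher, so these counts were partly fixed in advance. In nonclassical monocyte-like cells 3 of 11 were more than 2-fold higher (Tnfaip3, Icam1 and Birc3) and 2 lower (Cxcl3 and Ccl2), against 4.77% and 7.47% of all genes, with a median log2 ratio of 0.55 against -0.05.

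The endothelial classes that held most Il1r1 also differed in these genes, and 2 classes with few Il1r1 UMIs are given beside them. The part of Il1r1 in any of these differences was not tested. Alveolar fibroblast-like cells, with 8 sham and 1 HIR Il1r1 UMIs, had 4 of 8 more than 2-fold higher and 1 lower. Of all genes there, 8.43% and 4.81% were. The median log2 ratio of the 8 was 0.58, against 0.09. Smooth muscle or myofibroblast-like cells, with 10 and 2 Il1r1 UMIs, had 1 of 3 higher and 1 lower, against 1.56% and 1.38%. Their median log2 ratio was -0.09, against 0.02. In venous endothelium-like cells 5 of 7 measured were more than 2-fold higher, against 2.65% of all genes, and none lower, against 3.01%. Their median log2 ratio was 1.07, against -0.04. The adhesion molecules Vcam1 (416 and 885 CPM, 2.13, 1.94 to 2.34) and Sele (7.59 and 52.7 CPM, 6.95, 3.71 to 14.4), which hold leukocytes to the vessel wall, were among them, with Nfkbia (831 and 2449 CPM), Ptgs2 and Lcn2. The Sele ratio was 10.6 without the sham cell with the most UMIs. Sele reached 20 CPM in the venous class only in the HIR library. The filter admitted it only because it was higher there, so the venous count and median were partly fixed in advance. In general capillary endothelium-like cells 4 of 5 were more than 2-fold higher, against 1.4% of all genes: Nfkbia (489 and 1969 CPM), Nfkbiz, Cxcl2 and Lcn2. Their median log2 ratio was 0.97, against -0.01. Lcn2 is also a neutrophil granule gene, and neutrophils express Cxcl2. S100a8 and S100a9 were at 29.7 and 929 CPM in the venous and at 49.5 and 511 CPM in the capillary class. The part of neutrophil RNA in these results was not tested.

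In interstitial macrophage-like cells all 11 measured genes were higher in the HIR library, with a median log2 ratio of 0.41 against 0.02. None was past 2-fold, where 4.83% of all genes were, and 11 genes are too few to show a difference from that share. Ptgs2 there had a ratio of 0.823 without the HIR cell with the most UMIs. In alveolar macrophage-like cells 1 of 8 was higher and 7 were lower, and Cxcl3 alone was more than 2-fold lower, at 65.5 and 9.89 CPM, where 0.599% of all genes passed 2-fold. The median log2 ratio of the 8 was -0.26, against 0.02. In the sham library 1 cell held 60.5% of the 512 Cxcl3 UMIs, and without it the level was 26.0 CPM and the ratio 0.381 in place of 0.151.

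**Figure D5:**
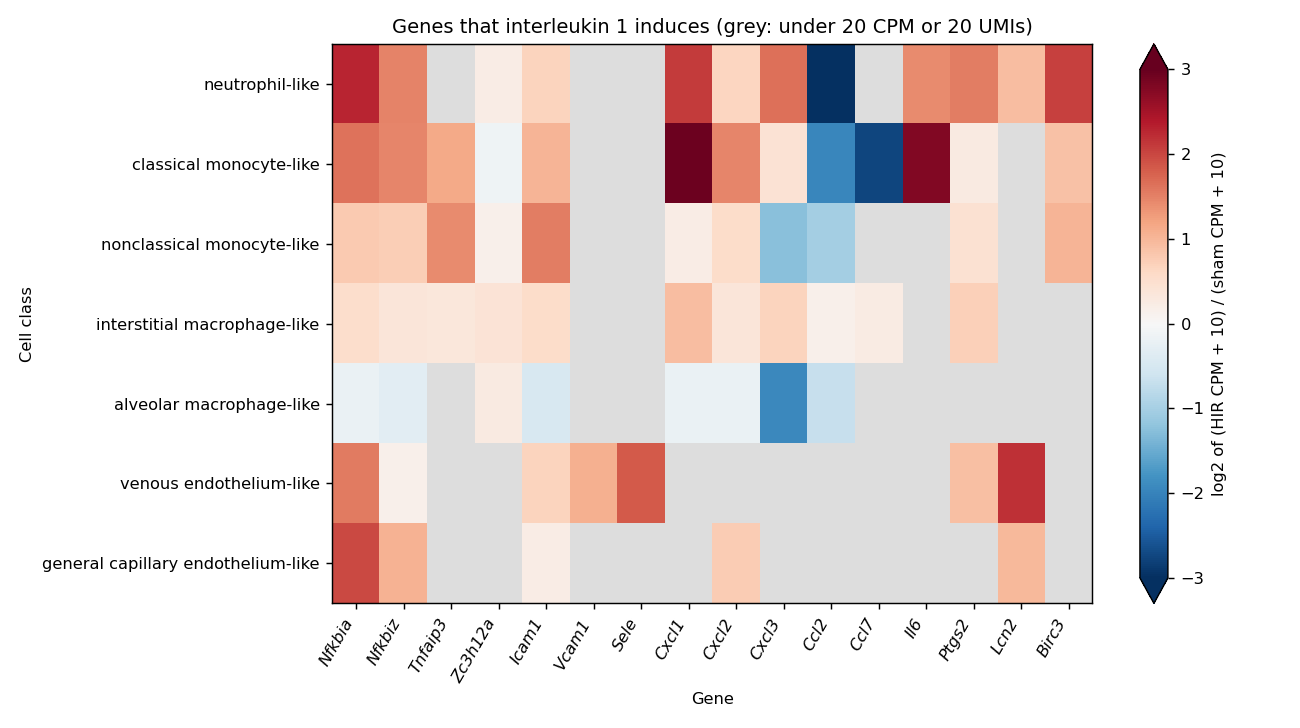
Log2 ratio of HIR to sham levels, with 10 CPM added to both, for the measured genes that interleukin 1 induces in the 5 myeloid and 2 endothelial classes (1 library per group); red is higher and blue lower in the HIR library, and grey marks genes not measured in a class. Nfkbia is red in 6 classes and pale blue in alveolar macrophage-like cells, and Ccl2 is blue in neutrophil-like and both monocyte-like classes.

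There were 4 other lists. Of the 19 receptor signalling genes, 1 of 7 measured in neutrophil-like cells was more than 2-fold higher (Peli1, a ubiquitin ligase of the pathway) and 1 lower (the kinase Ikbkb), a share near the 22.2% of all genes past 2-fold there. Irak3, which restrains interleukin 1 signalling, was at 25.04 and 50.2 CPM in classical (2.003, 1.37 to 3.03) and at 38.5 and 147 CPM in nonclassical monocyte-like cells (3.82, 2.86 to 5.16). It was the 1 of 11 measured more than 2-fold higher in the classical and the 1 of 10 in the nonclassical class. Of all genes, 5.15% and 4.77% were. Of the 17 inflammasome and pore genes, 1 of 7 measured in nonclassical monocyte-like cells was more than 2-fold lower, against 7.47% of all genes. This was the adaptor Pycard, at 831 and 347 CPM (0.418, 0.371 to 0.469). In neutrophil-like cells 1 of 6 was more than 2-fold lower, Txnip at 296 and 144 CPM, a share near the 16.7% of all genes. Mefv, which codes for the sensor pyrin, was the 1 of 5 more than 2-fold higher in interstitial macrophage-like cells. It was at 7.64 and 22.2 CPM, where 2.83% of all genes were more than 2-fold higher. The filter admitted Mefv only because it was higher in the HIR library. None of the inflammasome genes measured in classical monocyte-like (5), alveolar macrophage-like (6), venous (7) or general capillary endothelium-like cells (5) passed 2-fold. Of all genes, only 12.9%, 0.599%, 5.66% and 2.81% did in these classes, so so few list genes could not show a difference from that share.

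Among 15 related ligands and receptors, 14 of them in the files, Il18rap was higher in neutrophil-like cells, at 29.1 and 94.8 CPM (3.26, 2.05 to 5.49). In classical monocyte-like cells Il18rap had 0 sham UMIs, which allows up to 2.42 CPM, and 105 HIR UMIs, or 27.0 CPM. Il36b was lower in classical (79.2 and 20.8 CPM) and nonclassical monocyte-like cells (35.2 and 9.94 CPM), and Il18bp, which binds interleukin 18, was lower in venous endothelium-like cells (71.1 and 32.3 CPM). Il18rap reached 20 CPM in classical monocyte-like cells only in the HIR library, and Il36b in nonclassical monocyte-like cells only in the sham library. The filter admitted each only through the library where it was higher. Few of this list were measured: 2 in neutrophil-like, 2 in classical monocyte-like, 1 in nonclassical monocyte-like and 2 in venous endothelium-like cells. Of all genes, 22.2%, 12.9%, 12.2% and 5.66% passed 2-fold in these classes. Of 10 proteases that can cut interleukin 1 ligands or receptors, neutrophil elastase Elane was at 18.4 CPM (12 UMIs) and 70.1 CPM (224 UMIs) in neutrophil-like cells. Adam17, which sheds surface receptors, was at 47.3 and 105 CPM in nonclassical monocyte-like cells (2.23, 1.66 to 2.999) and at 49.7 and 19.9 CPM in interstitial macrophage-like cells (0.400, 0.217 to 0.703). Elane was admitted by the filter only through the HIR library, and Adam17 in the interstitial class only through the sham library. Of the proteases, 2 were measured in neutrophil-like, 2 in nonclassical monocyte-like and 3 in interstitial macrophage-like cells. Of all genes, 22.2%, 12.2% and 4.83% passed 2-fold there.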

How the data were processed

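The deposited values are whole UMI counts per gene and barcode. The matrices come from cellranger 5.0.0, per the file headers, and the submitters' processing notes name Cell Ranger 6.0, STAR, Seurat 4.0 and mm10, although all features carry rat identifiers. Gene positions and sequences were not used here. Barcodes under 200 genes or above 20% mitochondrial UMIs were dropped, as were Scrublet calls (0.8% per 1000 barcodes). Cells were clustered with scanpy 1.11.5 (2000 genes, 30 components, 15 neighbours, Leiden resolution 1.0) and clusters named from marker lists. The marker score and its threshold were set after the data were seen.

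UMIs were summed per class and library and divided by the class total. A gene was measured with 20 CPM in either library and 20 UMIs over both, and called past a 2-fold ratio. Log2 ratios had 10 CPM added. Classes under 100 cells in either library were not compared. The self-test ran on simulated data. Named were all 8 genes, their highest class, the called classes at 5% or more of it, the 3 most alike genes of 5 of them, and listed pathway genes past 2-fold whose interval leaves out 1. The genes, lists and rules were chosen with earlier results of these data known. Alternatives were other cell filters, doublets kept, other clusterings, gating of single cells, per-cell means, other thinning, no filter on low values and, chosen after seeing the data, cluster 6 alone and, for pathway genes, the cell with the most UMIs left out.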

Additional observations from a re-analysis of the deposited data

Results flagged for a closer look

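For 4 of the genes, cell classes lay on opposite sides of 1 in the same libraries. With 1 library per group these differences between classes were not tested. The log2 ratio of Il1b was 1.32 higher in classical monocyte-like than in neutrophil-like cells, but the neutrophil-like direction turned under some settings. That of Il1rn was 1.90 higher in nonclassical monocyte-like than in alveolar macrophage-like cells. That of Casp1 was 1.13 higher in classical monocyte-like than in venous endothelium-like cells. That of Nlrp3 was 0.95 higher in nonclassical monocyte-like than in alveolar macrophage-like cells.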

How the results depend on the processing

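No paired analysis was possible because each group holds 1 library and the labels share only 1 replicate number. Over all alternatives run, 190 ratios stayed within their counting interval, 20 moved outside it and 3 changed direction. Of the shares of cells, 115 moved with the thinning and 13 did not, and without the filter on low values 44 list counts moved and 16 did not. All 3 changes of direction were Il1b in neutrophil-like cells, at 1.15 under the stricter cell filter, 1.01 with doublets kept and 1.10 in cluster 6 alone, and the cause was not tested. With the mean of per-cell CPM, the Il1b ratio in neutrophil-like cells was 0.861, Il1r2 there 4.45, and over all cells Il1b 2.72, Il1rn 3.46 and Nlrp3 2.34. With each cell gated alone, Il1b in neutrophil-like cells was 0.937. In cluster 6 alone Il1r2 was 4.65. Over all cells, Il1b was 3.11 and Il1r2 18.1 under the stricter filter, and Il1b 3.01 with doublets kept, which gave 2.39 in classical monocyte-like cells. Il1r2 in classical monocyte-like cells lay between 61.9 and 109. Without the filter on low values, 7 in place of 3 genes of the interleukin 1 induced list were past 2-fold higher in nonclassical monocyte-like and 11 in place of 4 in general capillary endothelium-like cells. Depth limits Il1a, Il1rap, Il1r1 outside endothelium and Casp1 in neutrophil-like cells, each with few UMIs.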
